A study of Homo sapiens with 4 samples.

Results

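Target genes of the transcription factor p53 were examined in AGS, a gastric adenocarcinoma cell line of human origin, with and without lipopolysaccharide (LPS) of Helicobacter pylori. The list named 30 genes that p53 is known to activate. A gene was taken where the platform annotation paired a probe set with its symbol alone, and its brightest probe set over the 4 arrays stood for it, which gave 28 genes of the 19775 measured. BTG2 and FDXR, also on the list, were not analysed here, nor was the gene for p53 itself. The 2 untreated arrays came from cells given fresh medium and the 2 LPS arrays from cells given medium with 10 µg/ml of the LPS, all harvested at 8 h. Both groups grew in F-12 Ham medium with serum and antibiotics, and the series text speaks of 2 independent experiments. The comparison asks how transcripts of a gastric epithelial line respond to LPS of the bacterium.

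The p53 protein is kept scarce in resting cells by MDM2, a ubiquitin ligase that marks it for destruction. DNA damage and other stresses free p53 from MDM2, and p53 then binds paired copies of a short motif near its targets. Those targets stop the cell cycle, repair DNA, adjust metabolism or start apoptosis, and MDM2 itself is among them, which closes a feedback loop. AGS cells are known for wild-type p53. H. pylori infection is known to affect p53 in the gastric epithelium, in part through the injected bacterial protein CagA.

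The sequences that p53 reads were looked for in RefSeq promoters of build GRCh38.p14, in the 250 bases before each annotated start. Promoters were found for 22 of the 30 listed genes, in 33 windows. The motif searched was the consensus p53 response element, 2 copies of its 10-base motif end to end, with at most 2 mismatches in all and none at the central C and G of a copy. It reads the same on both strands. Of the 33 windows 4 held such an element (12.1%), against 85 of 35116 windows of all genes (0.242%). They belonged to AEN, FAS and MDM2, whose overlapping starts gave 2 of the windows. A match is a description of these letters, and elements farther from a start lie outside the windows. Elements with a mismatch at a central C or G, or with bases between the copies, were not searched and are not marked. The windows of these 3 genes are shown because they carry the element within reach of a start, with its 20 bases in capitals.
AEN, chr15:88621090-88621339, plus strand: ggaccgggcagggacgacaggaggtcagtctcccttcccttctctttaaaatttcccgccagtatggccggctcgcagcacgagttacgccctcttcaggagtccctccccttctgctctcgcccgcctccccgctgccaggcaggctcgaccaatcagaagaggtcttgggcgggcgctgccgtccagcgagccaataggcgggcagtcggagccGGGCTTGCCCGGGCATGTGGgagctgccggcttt
FAS, chr10:88991181-88991430, plus strand: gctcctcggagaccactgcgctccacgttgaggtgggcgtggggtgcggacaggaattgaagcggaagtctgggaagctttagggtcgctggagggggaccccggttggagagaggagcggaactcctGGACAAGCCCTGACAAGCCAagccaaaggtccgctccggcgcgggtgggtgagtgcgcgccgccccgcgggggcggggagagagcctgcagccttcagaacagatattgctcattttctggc
MDM2, chr12:68808767-68809016, plus strand: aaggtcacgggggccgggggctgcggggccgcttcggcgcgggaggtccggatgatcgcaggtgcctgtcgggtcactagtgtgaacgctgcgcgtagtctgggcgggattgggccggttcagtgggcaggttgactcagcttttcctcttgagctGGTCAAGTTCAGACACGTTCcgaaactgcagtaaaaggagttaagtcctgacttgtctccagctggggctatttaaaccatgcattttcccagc
The element begins 34 bases before the start in AEN, 122 in FAS and 94 in MDM2. In FAS that start is the most downstream of those searched, and the windows of its other starts held no such element. The MDM2 windows farther upstream held none either. The MDM2 window lies upstream of the internal start, the promoter of the gene known to answer to p53. In all 3 genes the treated and untreated arrays overlapped, with differences of -0.02, -0.04 and -0.12 on the log2 scale (values below).

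The list as a whole lay close to 0. None of the 28 genes passed the test over all genes (limma, two-sided, adjusted p = 1 for each), as was true of all 19775 genes (0 called, 0%). At an unadjusted p under 0.05 the count was 0 of 28 in either direction, against 1.26% of all genes higher and 1.57% lower with LPS. Differences, LPS minus untreated on the log2 scale, ran from -0.28 to 0.22, with 15 genes above 0 and 13 below. Their median was 0.04, against 0.02 for all genes, and it turned to -0.01 without untreated replicate 2, to -0.04 without LPS replicate 1 and to -0.01 when probe sets were averaged per gene. Both LPS arrays lay above both untreated arrays for 8 genes (28.6%, against 17.9% of all genes) and below them for 4 (14.3%, against 11.7%). With 2 arrays a group, an exact permutation test of 1 gene cannot go below p = 0.33.

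**Figure D1:**
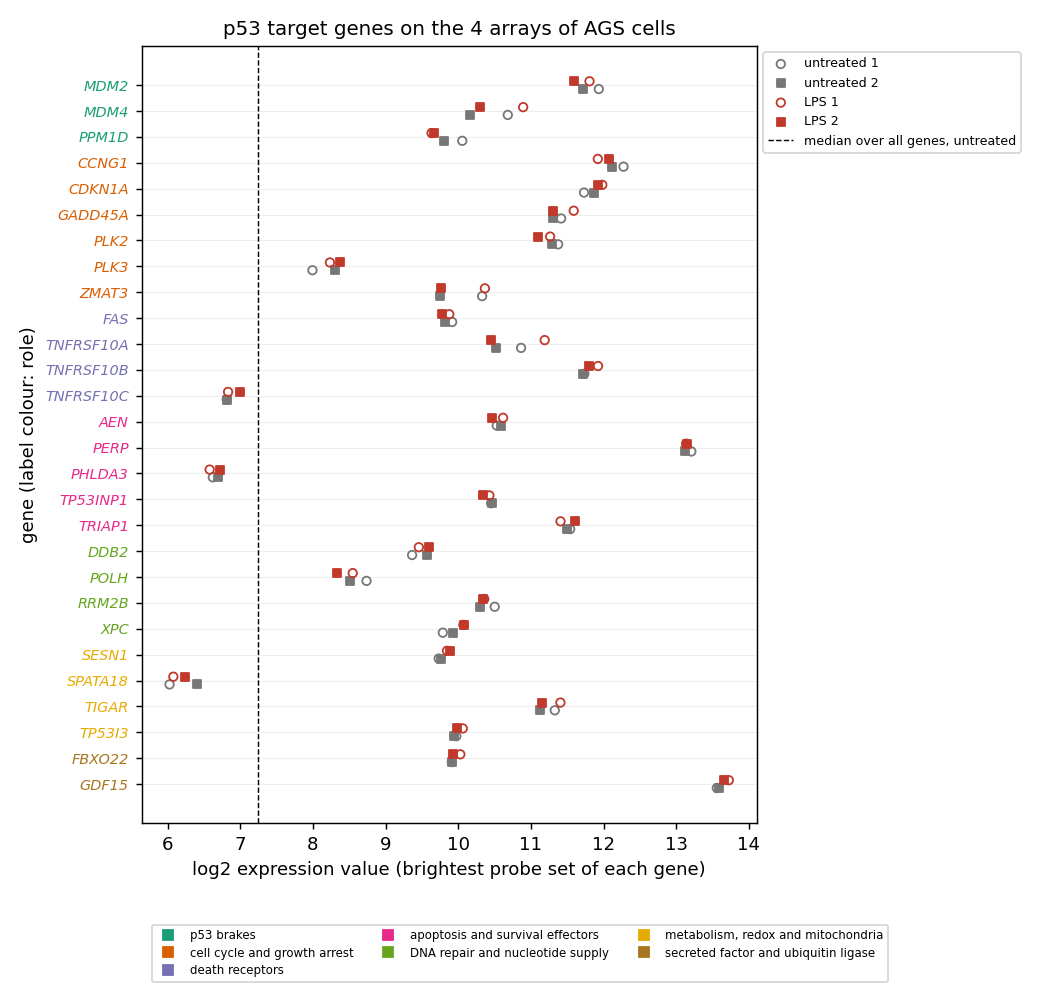
Log2 expression value of the 28 p53 target genes on each of the 4 arrays, by role, with the median over all genes in untreated cells as a dashed line. The symbols of a gene lie close together for most genes, while MDM4, ZMAT3 and TNFRSF10A are spread by array number rather than by treatment.

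Most p53 targets gave a bright signal in these cells: 25 of the 28 lay at or above the median over genes, which was 7.24 in untreated cells. PHLDA3, SPATA18 and TNFRSF10C lay below it, at 6.66, 6.21 and 6.81, and such values may hold mostly background. Brightness of different probe sets depends on the probes as well as on the transcript, so levels were not ranked between genes. The cells had the markers of epithelium: EPCAM stood at 13.56, KRT18 at 14.38 and KRT8 at 13.43 in untreated cells. All 6 epithelial markers lay at or above the median over genes, with CDH1 the lowest at 8.33. The leukocyte marker PTPRC stood at 5.12 and CD14 at 4.94, and each of the 3 leukocyte markers measured lay below the median over genes. Of 5 fibroblast or endothelial markers 1 lay above it, COL1A1 at 8.59. Of 2 red cell markers measured 1 lay above it, HBB at 7.41.

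Of the genes that restrain p53, PPM1D had the difference farthest from 0 among the 28. It encodes a phosphatase that switches p53 and the kinases above it off again. PPM1D stood at 10.06 and 9.80 on the untreated arrays and at 9.63 and 9.67 on the LPS arrays. Both LPS values lay below both untreated values, a ratio of 0.83 (95% interval 0.68 to 1.00; limma, unadjusted p = 0.051, adjusted p = 1). LPS replicate 1 differed from untreated replicate 1 by -0.42, and LPS replicate 2 from untreated replicate 2 by -0.13. A second, dimmer PPM1D probe set differed by 0.03.

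MDM2 stood at 11.93 and 11.71 in untreated cells and at 11.81 and 11.59 with LPS. The groups overlapped, and the ratio was 0.92 (0.77 to 1.10). Its 9 other probe sets differed by -0.29 to 0.21, 3 of them with the opposite sign. MDM4, an MDM2 relative that binds and silences p53, had 10.68 and 10.17 in untreated cells and 10.89 and 10.30 with LPS. Both arrays numbered 1 lay above both arrays numbered 2, whatever the treatment. The ratio was 1.13 (0.79 to 1.62), and the other 5 probe sets of MDM4 differed by -0.26 to 0.17.

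The genes of growth arrest lay on both sides of 0, with 4 of 6 above and 2 below. CDKN1A encodes p21, the inhibitor of cyclin-dependent kinases through which p53 halts the cycle. It stood at 11.73 and 11.87 in untreated cells and at 11.98 and 11.92 with LPS. The LPS arrays were the higher ones without overlap, by a ratio of 1.11 (0.96 to 1.28), and the same-numbered arrays differed by 0.25 and 0.05. CCNG1, a cyclin that feeds back on p53 through MDM2, stood at 12.27 and 12.11 in untreated cells against 11.92 and 12.08 with LPS. Here the LPS arrays were the lower ones, with a ratio of 0.87 (0.75 to 1.02) and differences of -0.35 and -0.03 in the same-numbered arrays. PLK2, a stress-responsive polo-like kinase, had 11.37 and 11.28 against 11.26 and 11.10. It too had no overlap, with LPS lower, at 0.90 (0.77 to 1.06).

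PLK3, another kinase of that family, differed by 0.16 ± 0.14 (SE), with arrays that overlapped, and its other probe sets by 0.07 and 0.20. GADD45A, a growth arrest and DNA damage protein, stood at 11.42 and 11.30 in untreated cells and at 11.59 and 11.30 with LPS. The arrays numbered 1 were the higher ones in both groups, and without LPS replicate 1 the difference was -0.06 in place of 0.08. ZMAT3, a zinc finger protein that acts on RNA splicing and stability, had 10.33 and 9.75 in untreated and 10.37 and 9.76 in treated cells. The same-numbered arrays were nearly equal, at differences of 0.04 and 0.01, while arrays of the same treatment lay 0.58 and 0.61 apart. The next brightest ZMAT3 probe set did not show that gap, with 9.80 and 9.82 in untreated and 9.83 and 9.91 in treated cells.

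**Figure D2:**
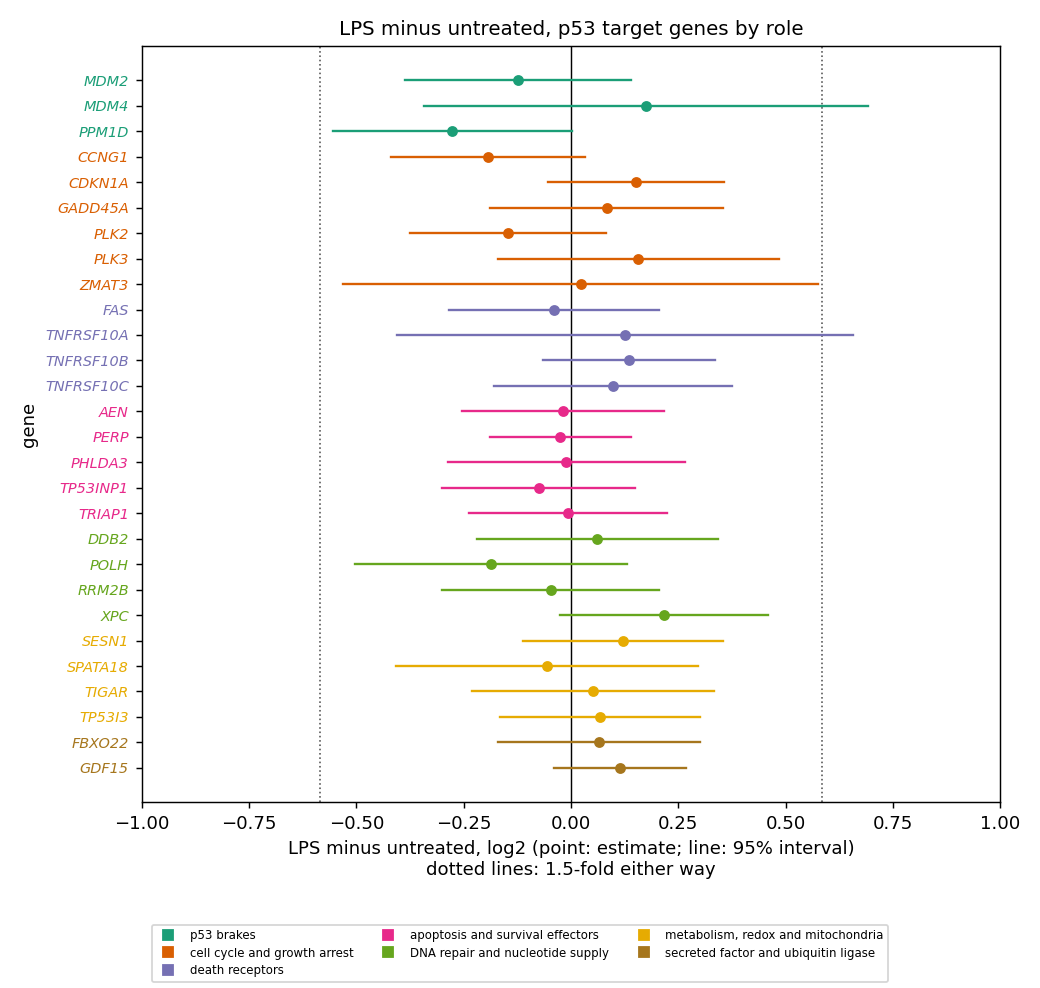
LPS minus untreated on the log2 scale for the 28 genes, with 95% intervals of the limma fit; dotted lines mark 1.5-fold. Every interval includes 0, and those of MDM4 and TNFRSF10A alone reach past 1.5-fold.

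The death receptors carry the extrinsic branch of p53-driven apoptosis. FAS, the receptor for FAS ligand, stood at 9.92 and 9.82 in untreated and at 9.88 and 9.78 in treated cells. The differences were -0.04 in both same-numbered comparisons, a ratio of 0.97 (0.82 to 1.15), and 4 further probe sets lay between -0.16 and 0.04. TNFRSF10B, the TRAIL receptor DR5, which the ATF4 stress pathway also controls, had 11.74 and 11.72 against 11.92 and 11.80. LPS was the higher without overlap, at 1.10 (0.96 to 1.26), but 3 dimmer probe sets differed by -0.01 to 0.06.

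TNFRSF10A, the TRAIL receptor DR4, had 10.86 and 10.53 in untreated cells and 11.19 and 10.45 with LPS. The treated arrays bracketed the untreated ones, with differences of 0.32 and -0.07 in the same-numbered arrays and a ratio of 1.09 (0.75 to 1.58). Its other probe sets differed by -0.05 and -0.01. TNFRSF10C, a decoy receptor that lacks the signalling part, was dim at 6.81 and 6.81 against 6.83 and 6.99, with LPS higher without overlap. Its 3 other probe sets differed by -0.15 to 0.24, 2 of them with the opposite sign. Probe sets of these related receptors can share signal.

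The 5 effectors of apoptosis and survival all had differences between -0.08 and -0.01. TP53INP1 alone of them stayed below 0 in every alternative run; AEN, PERP, PHLDA3 and TRIAP1 each turned above 0 when some single array was left out, TRIAP1 also under quantile normalization and PERP also without _x_at and _s_at probe sets. PERP, a membrane protein of desmosomes that promotes apoptosis, was bright at 13.21 and 13.12 in untreated and 13.14 and 13.14 in treated cells. Its ratio was 0.98, with an interval of 0.88 to 1.10. AEN, a nuclease that degrades DNA in dying cells, had 10.53 and 10.59 against 10.62 and 10.47, and TRIAP1, which protects mitochondria, had 11.54 and 11.49 against 11.41 and 11.61. In both, LPS replicate 1 and LPS replicate 2 lay outside the untreated values on opposite sides. TP53INP1, which links p53 to apoptosis and autophagy, differed by -0.08 ± 0.10 (SE) without overlap of the arrays. Its 2 other, dimmer probe sets differed by 0.15 and -0.17, with arrays that overlapped. PHLDA3, an inhibitor of AKT signalling, differed by -0.01 ± 0.12.

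Of the DNA repair genes, XPC had the largest difference above 0 among the 28. It encodes the protein that first recognises bulky lesions in nucleotide excision repair. XPC stood at 9.79 and 9.93 in untreated cells and at 10.07 and 10.08 with LPS. The LPS arrays were the higher ones without overlap, at a ratio of 1.16 (0.98 to 1.37; limma, unadjusted p = 0.073, adjusted p = 1), with differences of 0.28 and 0.15 in the same-numbered arrays. A single probe set measured it. DDB2, its partner in recognising ultraviolet damage, differed by 0.06 ± 0.12 (SE), with arrays that overlapped.

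POLH, the polymerase that copies past ultraviolet lesions, had 8.74 and 8.51 in untreated and 8.55 and 8.33 in treated cells. Its differences were -0.19 and -0.18 in the same-numbered arrays, yet the groups overlapped, at 0.88 (0.71 to 1.09). The second brightest POLH probe set went the other way, by 0.34, and the other 4 lay from -0.27 to -0.07. RRM2B, the ribonucleotide reductase subunit that supplies nucleotides for repair, differed by -0.05 ± 0.11 (SE).

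**Figure D3:**
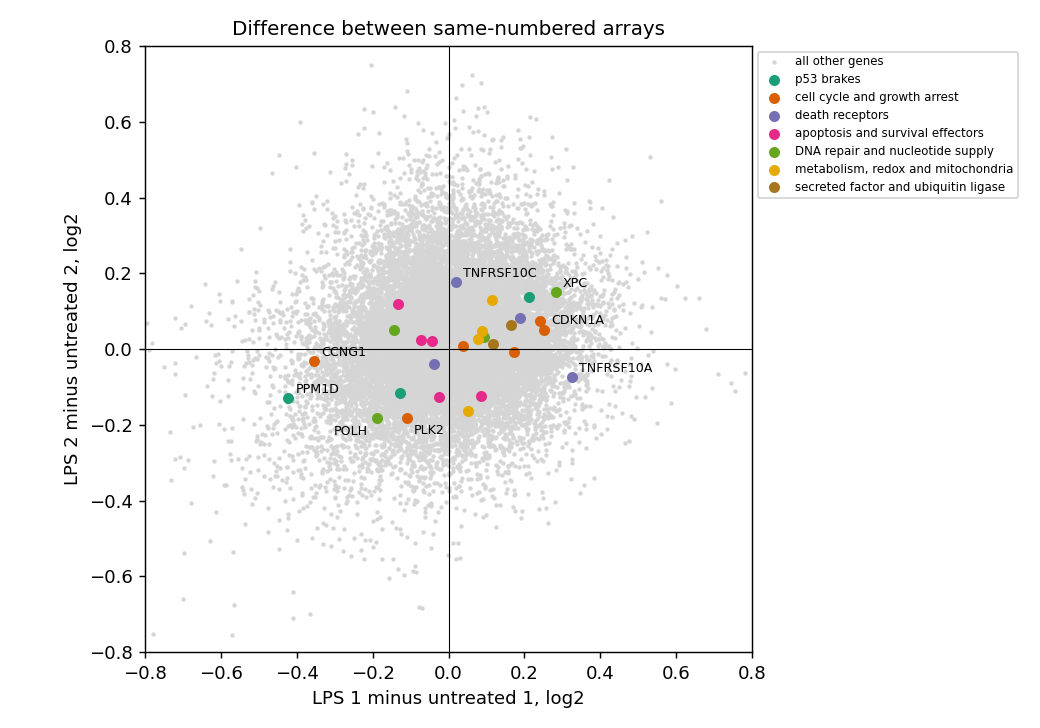
Difference between LPS and untreated arrays numbered 1 (x axis) and numbered 2 (y axis), log2; coloured points are the p53 targets by role and grey points the other genes, with 20 genes beyond the axes. Of the 28 genes, 20 have the same sign on both axes (71.4%, against 55.9% of all genes) and 8 do not. PPM1D (-0.42 and -0.13) and CCNG1 (-0.35 and -0.03) lie farther from 0 on the x axis than on the y axis.

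Among the genes of metabolism and mitochondria, SESN1, a stress sensor that restrains mTOR signalling, had 9.73 and 9.76 in untreated and 9.85 and 9.89 in treated cells. Its LPS arrays were higher without overlap, by 0.11 and 0.13 in the same-numbered arrays, a ratio of 1.09 (0.93 to 1.28). TP53I3, a quinone oxidoreductase, differed by 0.07 ± 0.10 (SE), also without overlap. TIGAR, which turns glucose towards the pentose phosphate pathway, had 11.33 and 11.12 against 11.41 and 11.15, so that it too followed the array number. SPATA18, a protein of mitochondrial quality control, was dim and differed by -0.06 ± 0.15.

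GDF15, a secreted stress cytokine that p53 and ATF4 both induce, was bright at 13.56 and 13.59 in untreated cells. It stood at 13.72 and 13.65 with LPS, higher without overlap by a ratio of 1.08 (0.97 to 1.20). On the log2 scale that interval is the narrowest of the 28. Its 2 other probe sets were dim and differed by 0.34 and -0.20. FBXO22, the substrate adaptor of a ubiquitin ligase, differed by 0.07 ± 0.10 (SE) without overlap, and its 4 other probe sets by -0.18 to 0.08. Of these 4, 3 had the opposite sign. The second brightest also had no overlap, with LPS lower, at -0.18.

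How far a gene could be followed depended on its probe sets. Of the 28 genes, 12 had 1 probe set and 16 had several, 80 probe sets in all. In 13 of the 16, at least 1 other probe set had the opposite sign to the brightest one. The intervals of 26 genes lay within 1.5-fold in both directions. The median interval reached 0.25 to either side, against 0.27 for all genes. Control probe sets for 18S ribosomal RNA averaged 10.07 and 9.89 on untreated and LPS replicate 1, and 8.12 and 7.98 on untreated and LPS replicate 2. In the same order, the poly-A controls averaged 8.80 and 8.27, then 7.71 and 7.59. The hybridisation controls averaged 9.88 and 10.57, then 9.68 and 9.76. Both arrays numbered 1 were the higher ones also for MDM4, ZMAT3, TNFRSF10A, TIGAR, MDM2, GADD45A, FAS, POLH and RRM2B. Both arrays numbered 2 were the higher ones for DDB2, PLK3, SPATA18 and PHLDA3. The share of all genes with such gaps was not counted, and the part of the controls' difference in these gaps was not tested.

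**Figure D4:**
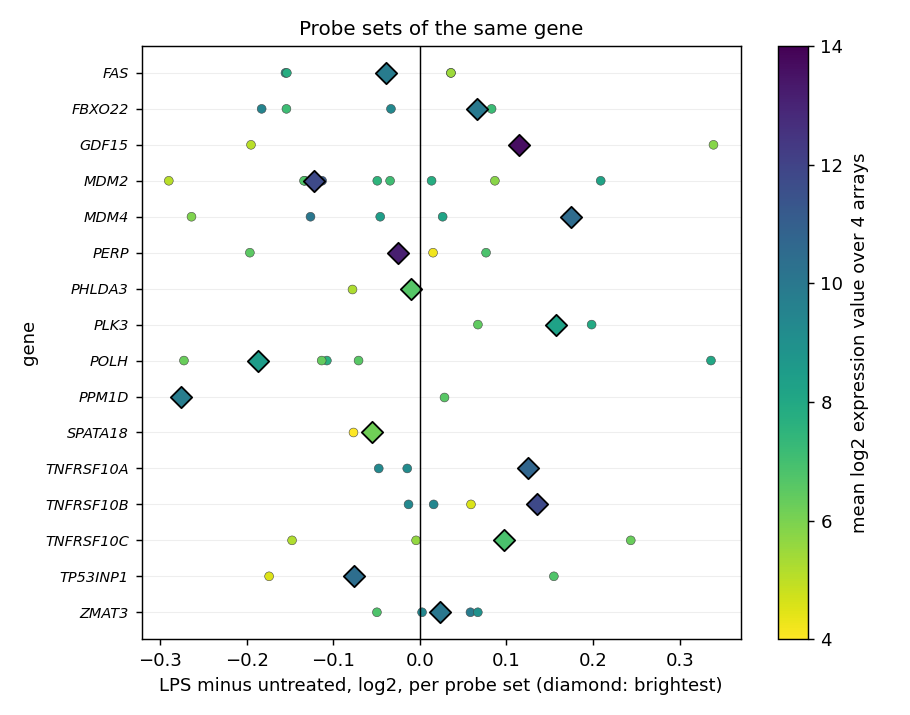
LPS minus untreated on the log2 scale for each probe set of the 16 genes with several; diamonds are the brightest probe set, and colour gives the mean log2 expression value. Probe sets of MDM2 run from -0.29 to 0.21 and those of POLH from -0.27 to 0.34, on both sides of 0.

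Other genes of the pathway were taken from 3 lists, of which 45 of 52 genes were measured, and none passed (limma, 0 called, and 0 at an unadjusted p under 0.05). Of 15 p53 relatives and upstream regulators, 6 lay above 0 and 9 below, with a median of -0.05. ATM, the kinase that signals DNA breaks to p53, differed by 0.26 ± 0.15 (SE), and without _x_at and _s_at probe sets by -0.47. CDKN2A, whose ARF product blocks MDM2, differed by 0.10 ± 0.14, without _x_at and _s_at probe sets by -0.10 and without untreated replicate 1 by -0.06. HIPK2, a kinase that activates p53 towards apoptosis, differed by -0.23 ± 0.13 (0.01 with the mean of its probe sets). RCHY1, a ubiquitin ligase for p53, differed by -0.19 ± 0.10, and both had no overlap of the arrays. LPS arrays lay below untreated arrays without overlap for 3 of the 15 (20%, against 11.7% of all genes). They lay above for 0 of the 15 (0%, against 17.9%).

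Of 16 other direct targets, 10 lay above 0 and 6 below, with a median of 0.09. SESN2, a relative of SESN1 that ATF4 also induces, had 11.41 and 11.46 in untreated and 11.69 and 11.54 in treated cells, 0.18 ± 0.09 (SE). TP53TG1, a noncoding RNA induced by p53, differed by 0.25 ± 0.12, the ribosomal protein-like gene RPS27L by -0.10 ± 0.07 and KITLG, the ligand of the KIT receptor, by -0.10 ± 0.10. LPS arrays lay above untreated arrays without overlap for 6 of the 16 (37.5%) and below for 2 (12.5%), beside 17.9% and 11.7% of all genes. The 14 cell cycle genes lowered through p21 and the DREAM repressor complex were evenly divided, 7 above and 7 below 0, with a median of -0.01. LPS arrays lay below untreated arrays without overlap for 1 of the 14 (7.14%) and above for 0 (0%). CDK1, the mitotic kinase, differed by -0.14 ± 0.10 and the cyclin gene CCNA2 by -0.10 ± 0.10, while the mitotic genes AURKA and CDC20 each differed by 0.09.

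**Figure D5:**
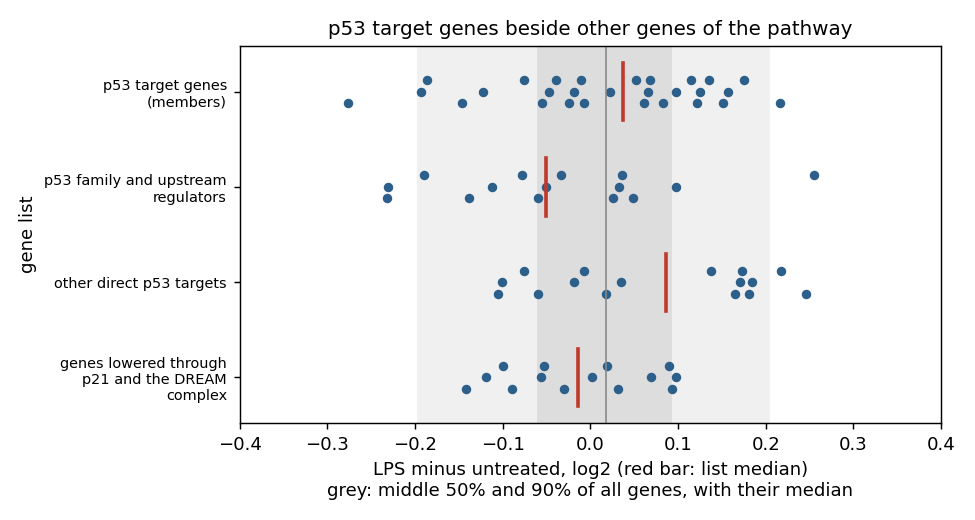
LPS minus untreated on the log2 scale for the p53 targets and the other 3 lists of the pathway; each point is a gene, red bars are list medians, and grey bands hold the middle of all genes. The list medians are 0.04, -0.05, 0.09 and -0.01; single genes have a median of 0.02 and quartiles of -0.06 and 0.09.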

How the data were processed

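The deposited table gave log2 expression values for 54675 probe sets on 4 single-channel arrays. MAS5 and RMA are named in the submitters' processing notes, without role or version, and the deposited log2 values look like RMA output. Their background and normalization steps are not given in the sources used here, and RMA shrinks differences of dim probe sets. The values were used as deposited.

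Probe sets were named through the platform annotation, with 41091 having 1 symbol. The brightest probe set stood for a gene (19775 genes). The LPS effect was fitted by limma 3.58.1 (R 4.3.3; intensity trend, no covariate), adjusted by Benjamini-Hochberg over all genes at 0.05. Intervals are 95% intervals of that fit. The fit was tested on simulated data. The members and lists were chosen with earlier results of these data known. All measured members are named, and of each pathway list the 2 genes with the largest moderated statistic in each direction. Figures were drawn with matplotlib 3.10.9. Replicate numbers come from the sample titles. The p-values set a difference against the spread between these arrays, with the variance of each gene moderated by limma across all genes. The number of arrays limits the precision.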

Additional observations from a re-analysis of the deposited data

How the results depend on the processing

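No p53 target passed the adjusted test in any of 11 alternatives (limma). Over all genes, leaving out 1 array gave 0 to 2 genes called higher and 0 to 14 lower, the calls coming without LPS replicate 2. The median over the p53 targets was -0.0088 with the mean of all probe sets, and -0.038 to 0.038 when 1 array was left out. A lone array is assumed there to vary like the other group. The filter at median expression kept 25 of the 28 genes and the one on _x_at and _s_at probe sets 23. Of the 28 genes, 13 kept their sign in each alternative that gave a value and 15 did not. Deviations from the group means correlated between same-numbered arrays (r = 0.44 over genes), but the labels tie no number to a shared experiment. With the replicate block, 0 of the 28 genes passed and the median was 0.0371; MDM4, XPC and PPM1D had an unadjusted p under 0.05 (smallest adjusted p = 0.640 among the 28), as did 7.52% of all genes. At an unadjusted p under 0.05 stood also PPM1D without _x_at and _s_at probe sets (3.12% of all genes) or without untreated replicate 2 (2.31%), and CCNG1, MDM4 and TNFRSF10A without LPS replicate 2 (6.47%).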

Other observations

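The gap between array numbers differed among probe sets of the same gene. For MDM4, the brightest probe set stood at 10.68 and 10.17 in untreated cells and at 10.89 and 10.30 with LPS. The second brightest had the gap too, at 10.21 and 9.98, then 10.17 and 9.77. So did dimmer ones at 8.35 and 7.97, then 8.44 and 7.94, and at 6.37 and 5.73, then 5.99 and 5.58. The remaining ones had no such gap, at 8.45 and 8.45, then 8.37 and 8.43, and at 6.60 and 6.61, then 6.68 and 6.87. For MDM2, one of the dimmer probe sets stood at 7.12 and 6.48 in untreated cells and at 7.09 and 6.24 with LPS, a wider gap than on the brightest. One POLH probe set stood at 8.17 and 7.58 in untreated cells and at 8.53 and 7.89 with LPS, again higher on both arrays numbered 1; it is the one POLH probe set with a difference above 0. In FAS the brightest probe set ran from 9.78 to 9.92 over the 4 arrays, and another ran from 8.59 to 9.15. These probe sets were chosen after their values were seen.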
